A study of Mus musculus with 4 samples.

Results

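The genes described here encode the machinery that copies DNA in S phase: 33 genes chosen by name, of 55399 listed in the deposited count table, for the replicative helicase, origin licensing, the polymerases with their sliding clamp and clamp loader, nucleotide supply, histone supply and the control of S phase entry. All 33 were found in the table, at the coordinates that GENCODE gives for the same mouse build (mm10), and all 33 passed the low-count filter. Bulk RNA-seq was made from 4 mouse bone marrow libraries whose cell type is labelled Lsk, a marrow fraction sorted for Sca-1 and Kit after mature cells are depleted, in which stem cells and early progenitors are found. Of these, 2 carry the genotype label Ppm1bfl/fl (alleles of the phosphatase gene Ppm1b flanked by loxP sites) and 2 carry Ppm1bCKO (conditional knockout). No source used here states the age, any treatment, the Cre line or the cells in which it acts. Whether the replicates are different mice is also not stated, and the p-values then reflect only how much these libraries vary. With 2 bulk libraries a genotype, fewer cells in S phase and less transcript per cell cannot be told apart.

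Origins are licensed in G1, when the origin recognition complex, CDC6 and CDT1 load rings of MCM2 to MCM7 onto DNA. On entry into S phase the rings are joined by CDC45 and the GINS complex into the active CMG helicase, and polymerases held by the PCNA clamp copy the unwound strands. Many of these genes are transcribed in late G1 under E2F transcription factors. Most long-term stem cells in marrow are quiescent, whereas progenitors, erythroblasts and early B cells divide often, so the level of this programme in a mixed sort depends on which cells it holds.

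Total counts ran from 22393973 to 30045382 per library, and the members' own counts from 341 (Fen1) to 19306 (Mcm6), at which counting error alone is 5.42% and 0.72%. Levels are given as counts per 1e+06 reads scaled by edgeR's TMM factors (CPM), and fold changes as the libraries labelled Ppm1bCKO over Ppm1bfl/fl. Ppm1b itself stood at 80.8 and 82.5 CPM in Ppm1bfl/fl replicates 1 and 2, against 84.3 and 121 CPM in those labelled Ppm1bCKO (log2 fold change 0.33 ± 0.20 SE, edgeR adjusted p = 0.717). These counts sum over all exons and so do not test the deletion, and each direction below rests on the labels. Markers of the labelled fraction were low beside a marker of red cells: the mean level per kb of exon was 20.5 CPM for Kit and 16.7 CPM for Ly6a, which encodes Sca-1, where it was 6298 CPM for the haemoglobin gene Hbb-bs. Mpo, an enzyme gene of myeloid progenitors, stood at 1057 CPM per kb. The replication values are those of all cells collected.

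None of the 33 replication genes was called as different between the genotypes. edgeR called 0 of 33 at an adjusted p under 0.05, where it called 61 of 16393 tested genes (0.372%). DESeq2 (0 of 33, against 1.24% of the genes it could adjust) and limma-voom (0 of 33, against 50 of 16393) also called none. At such shares 0 calls among 33 genes say little about the members. At an unadjusted p under 0.05 edgeR had 0 of 33, against 6.44% of all tested genes. The log2 fold changes ran from -0.46 (Pole) to 0.46 (Rfc4), 23 positive and 10 negative. Their median was 0.045, where that of all tested genes was -0.0032. The 95% intervals still allow sizeable differences, down to -1.05 for Pole (2.08-fold lower) and up to 0.95 for Rfc4 (1.93-fold higher). Each interval is for a single gene and is not adjusted for the 33 examined. The intervals do not show that the genotypes are alike. The summed level of the members was 6560 and 7699 CPM in Ppm1bfl/fl replicates 1 and 2, against 7258 and 7469 CPM in those labelled Ppm1bCKO. Both latter values lay between the Ppm1bfl/fl libraries (two-sided exact permutation test, 2 against 2, p = 1, where the smallest p possible is 0.333).

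**Figure D1:**
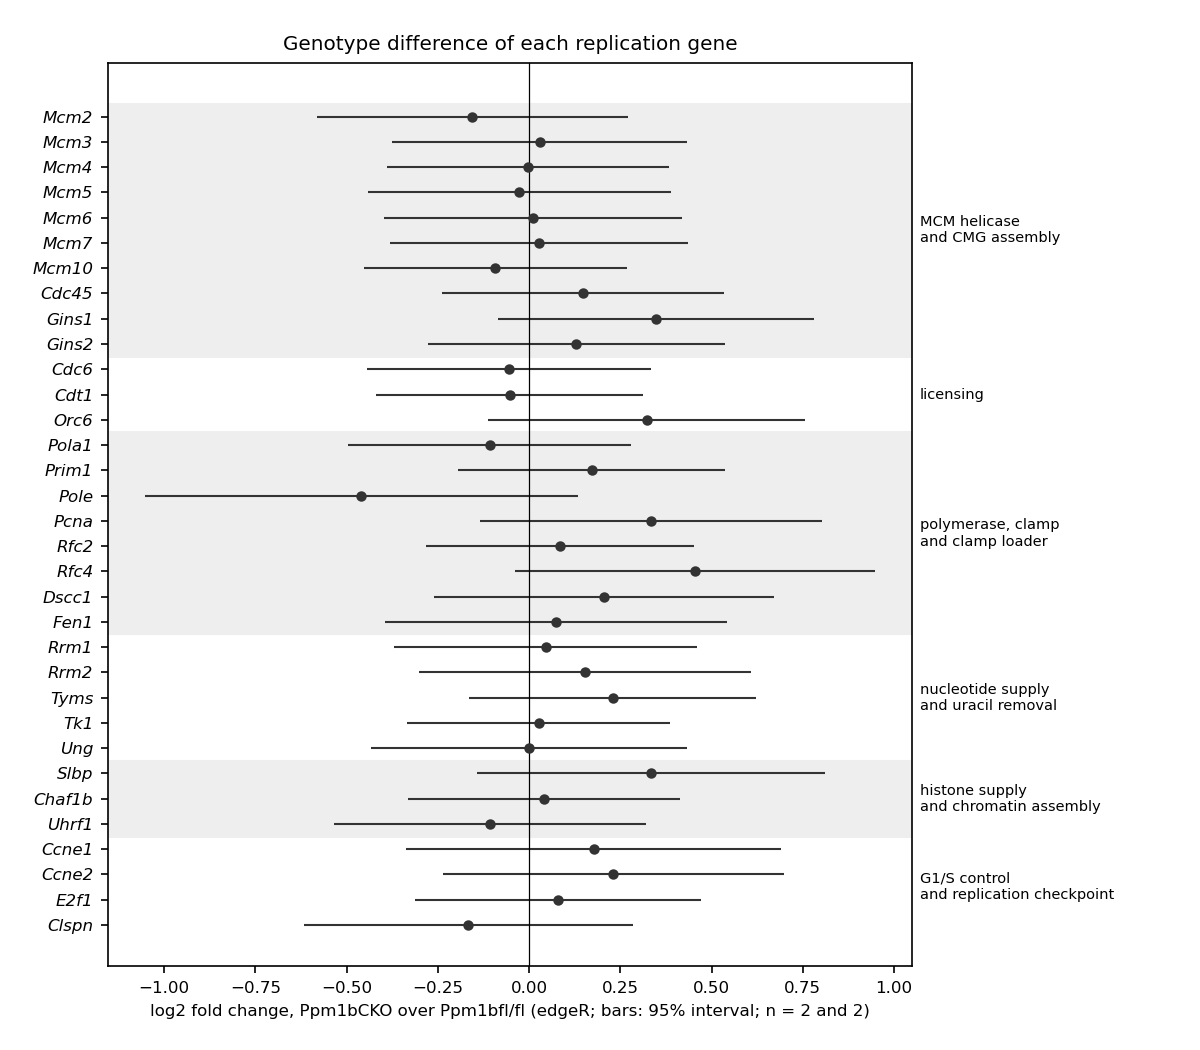
Each point is a replication gene's log2 fold change, libraries labelled Ppm1bCKO over Ppm1bfl/fl (x axis), and bars are 95% intervals from edgeR with 2 libraries a genotype; genes are grouped by role. All 33 intervals include 0, and the points run from -0.46 (Pole) to 0.46 (Rfc4).

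In summed level the 2 Ppm1bfl/fl libraries (6560 and 7699 CPM) stood further apart than the genotype means (7130 ± 805 and 7364 ± 149 CPM, SD, n = 2 each). Ppm1bfl/fl replicate 1 held the lowest value of the 4 libraries for 27 of 33 members (81.8%), where it did so for 24.9% of all tested genes. Ppm1bCKO replicate 2 held the highest value for 17 members (51.5%) and the lowest for 6 others (18.2%). Over all tested genes it was highest for 36.7% and lowest for 37.2%. Ppm1bfl/fl replicate 2 was highest for 15 members (45.5%), against 21.2% of all tested genes. Ppm1bCKO replicate 1 held neither end for any of the 33. It was lowest for 16.9% and highest for 16.1% of all tested genes. The direction of the median depended on the control library kept: it was -0.051 without Ppm1bfl/fl replicate 1 and 0.15 without Ppm1bfl/fl replicate 2. The summed level turned in the same way, at -0.068 and 0.17 on the log2 scale.

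**Figure D2:**
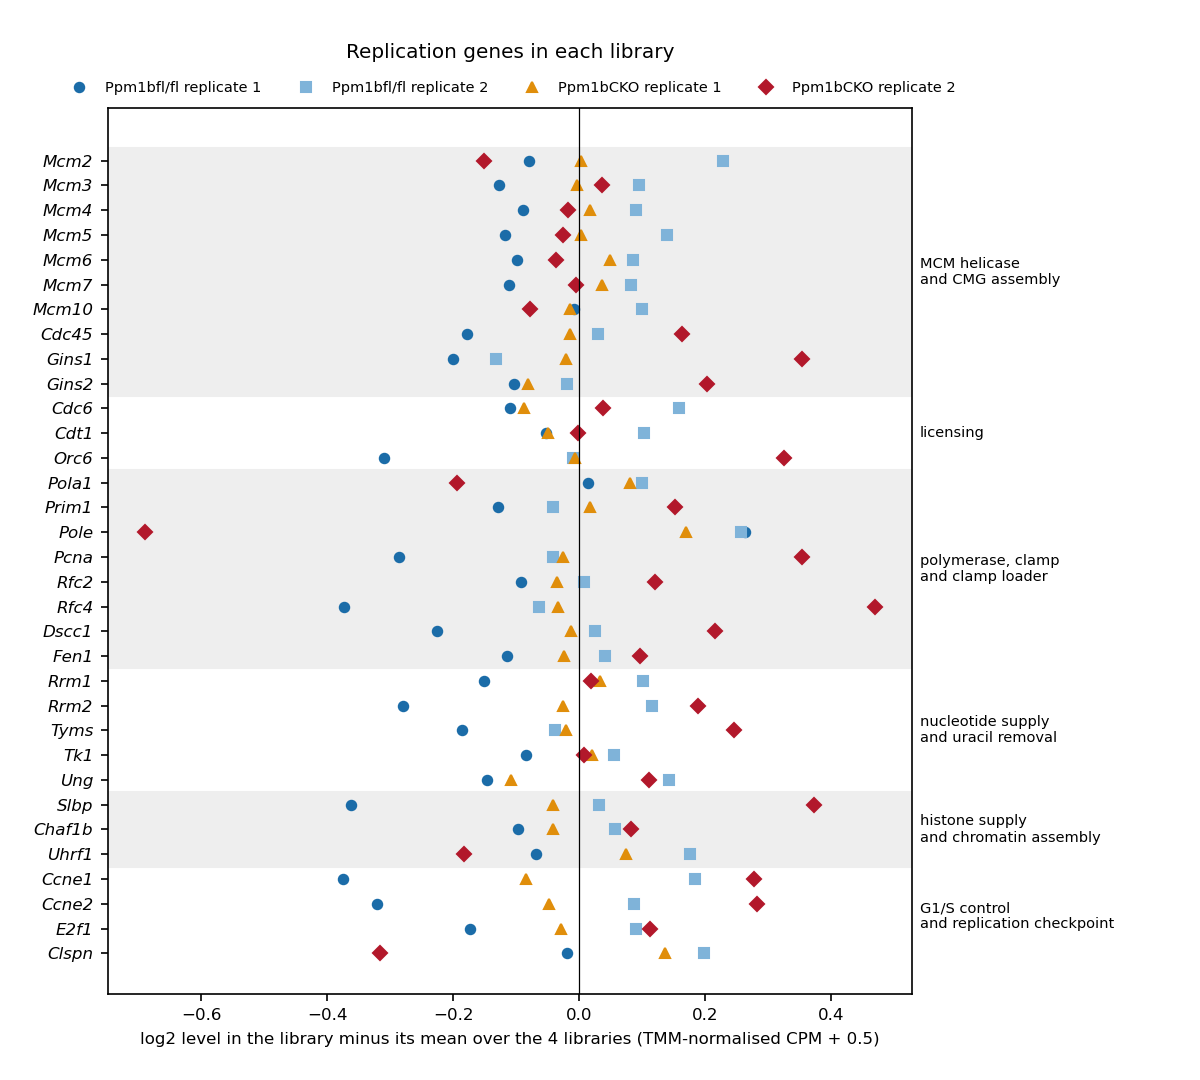
The x axis gives the log2 level of each replication gene in a library (TMM-normalised CPM + 0.5) minus its mean over the 4 libraries; each marker is 1 library and genes are grouped by role. Ppm1bfl/fl replicate 1 lies lowest for 27 of 33 genes, and Ppm1bCKO replicate 2 takes the widest range, from Pole on the left to Rfc4 on the right.

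MCM2 to MCM7 form the ring that unwinds the duplex. None of their 6 genes separated the genotypes, and 9648 of 16393 tested genes did not either. Mcm5 (ENSMUSG00000005410.6, chromosome 8, 75109569 to 75128439) stood at 511 and 610 CPM in Ppm1bfl/fl, against 555 and 544 CPM in those labelled Ppm1bCKO. Mcm6 (ENSMUSG00000026355.11, chromosome 1, 128331590 to 128359664) stood at 563 and 640 CPM against 624 and 588 CPM. For both genes the Ppm1bCKO libraries fell inside the range of the controls. Mcm7 read 543 and 621 CPM against 601 and 585 CPM, Mcm3 445 and 520 CPM against 486 and 499 CPM, and Mcm4 336 and 380 CPM against 362 and 353 CPM. Mcm4, Mcm5, Mcm6 and Mcm7 ordered the 4 libraries in the same way, from Ppm1bfl/fl replicate 1 (lowest) through Ppm1bCKO replicates 2 and 1 to Ppm1bfl/fl replicate 2 (highest). Mcm3 exchanged the middle libraries. Mcm2 was the exception at the low end, with 402 and 498 CPM against 426 and 383 CPM, where Ppm1bCKO replicate 2 was lowest. The 6 log2 fold changes ran from -0.16 (Mcm2) to 0.029 (Mcm3), with a median of 0.0042, and their 95% intervals lay between -0.58 and 0.43.

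The promoters of the MCM genes are known for E2F sites, and the windows printed here show the letters found in members with a match. Promoters in the RefSeq table (GRCm38.p6, the same build as mm10), from 250 bases before to 50 after a transcript start, were present for 26 of 33 members. They were searched on both strands for the 4 forms of an E2F site, TTTCCCGC, TTTCGCGC, TTTGCCGC and TTTGGCGC, some of which overlap each other on opposite strands. A match was found for 9 of 26 members (34.6%) and for 16 of 47 other replication genes with a promoter (34.0%), where 704 of 27025 genes in the table had 1 (2.60%). The members with a match were Mcm3, Mcm5, Mcm6, Mcm7, Cdc6, Cdt1, Pola1, Uhrf1 and Clspn. The windows of 40 bases shown here lie upstream of the annotated gene, are written 5′ to 3′ on the gene's strand, and have the matched letters in capitals; the site in Mcm5 and the distal site in Mcm6 each hold 2 overlapping forms on opposite strands.
Mcm5, chr8:75109340-75109379, plus strand: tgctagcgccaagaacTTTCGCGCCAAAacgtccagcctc
Mcm6, distal, chr1:128359792-128359831, minus strand: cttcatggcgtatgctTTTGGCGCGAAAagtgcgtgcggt
Mcm6, proximal, chr1:128359729-128359768, minus strand: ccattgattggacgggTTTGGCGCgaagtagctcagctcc
Pola1, chrX:93632270-93632309, minus strand: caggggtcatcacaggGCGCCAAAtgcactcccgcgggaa
The matches begin 153 (Mcm5), 110 and 47 (Mcm6) and 138 (Pola1) bases before the start of the transcript. They are descriptions of letters, and the libraries carry no measurement of E2F binding. The CCAAT box, the other motif searched, was in 16 of 26 members (61.5%) and in 41.1% of all genes of the table.

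Per kb of exon, the partners that complete the helicase were lower than the ring genes, between 9.78 CPM (Gins2) and 26.2 CPM (Cdc45). Cdc45, which joins the ring in the CMG helicase, stood at 80.8 and 93.5 CPM in Ppm1bfl/fl. In the libraries labelled Ppm1bCKO it stood at 90.6 and 103 CPM, with overlap between the groups. Gins1 (ENSMUSG00000027454.10, chromosome 2, 150905400 to 150931280), a GINS subunit, stood at 32.4 and 34.0 CPM against 36.7 and 47.8 CPM. Both Gins1 values from libraries labelled Ppm1bCKO lay above both controls, yet the log2 fold change of 0.35 ± 0.19 (SE) did not pass (edgeR adjusted p = 0.717). Gins2, another GINS subunit, ran from 37.1 to 46.0 CPM, and 67.3% of its exonic bases are also covered by exons of Gse1 on the opposite strand, so its value is uncertain. Mcm10, which helps activate the helicase, stood at 102 and 110 CPM against 102 and 97.6 CPM (log2 fold change -0.093 ± 0.16). Its groups did not overlap, by a margin of under 1 CPM.

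Of the 3 licensing genes, 2 overlapped between genotypes, as did 9648 of 16393 tested genes. With 3 genes that count says little about licensing. Cdc6, which loads the MCM ring with the origin recognition complex, stood at 126 and 152 CPM against 128 and 140 CPM. Cdt1, its partner in loading, stood at 203 and 226 CPM against 203 and 210 CPM. In both genes Ppm1bfl/fl replicate 2 was highest, and Ppm1bfl/fl replicate 1 and Ppm1bCKO replicate 1 differed by less than the pair of controls. Orc6 (ENSMUSG00000031697.12, chromosome 8, 85299632 to 85308278), the smallest subunit of the origin recognition complex, stood at 77.1 and 95.2 CPM against 95.4 and 120 CPM, which gave 0.32 ± 0.19 on the log2 scale (adjusted p = 0.717 by edgeR). Its groups touched but did not overlap, since Ppm1bfl/fl replicate 2 and Ppm1bCKO replicate 1 differed by less than 1 CPM.

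The polymerase, clamp and loader genes held both extremes of the 33. Pcna (ENSMUSG00000027342.14, chromosome 2, 132249162 to 132253314), the sliding clamp, stood at 485 and 575 CPM in Ppm1bfl/fl, against 581 and 756 CPM in those labelled Ppm1bCKO (log2 fold change 0.33 ± 0.20, edgeR adjusted p = 0.717). Ppm1bCKO replicate 2 stood apart, whereas replicate 1 lay beside Ppm1bfl/fl replicate 2. Rfc4 (ENSMUSG00000022881.15, chromosome 16, 23113943 to 23127737), a clamp loader subunit, followed the same order at 36.3 and 45.2 CPM against 46.1 and 65.6 CPM (0.46 ± 0.22, edgeR adjusted p = 0.717). Rfc2, another subunit of the loader, ran from 167 to 193 CPM. Dscc1, of the alternative loader that serves sister chromatid cohesion, ran from 17.9 to 24.5 CPM, and both genes overlapped between genotypes.

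Pole (ENSMUSG00000007080.14, chromosome 5, 110286306 to 110337474), the catalytic subunit of the leading-strand polymerase, went the other way in a single library. It stood at 139 and 138 CPM in Ppm1bfl/fl, against 130 and 71.3 CPM in those labelled Ppm1bCKO (log2 fold change -0.46 ± 0.26, edgeR adjusted p = 0.717). Replicate 1 was close to the controls and replicate 2 was the low value. Without Ppm1bCKO replicate 2 the log2 fold change of Pole was -0.092 and that of Pcna 0.13. Pola1, the catalytic subunit of the polymerase that starts new strands, stood at 114 and 121 CPM against 119 and 98.6 CPM, again lowest in Ppm1bCKO replicate 2. Prim1, the primase of the same complex, stood at 86.0 and 91.4 CPM against 95.2 and 105 CPM, and its groups did not overlap (0.17 ± 0.16). Fen1, the nuclease that trims Okazaki fragments, read only 14.1 to 16.3 CPM. Of its exonic bases, 84.2% are also covered by exons of other genes, most of them of Gm10143 on the opposite strand, so its level is uncertain. Smaller overlaps with opposite-strand genes were present for Ccne2 (17.4%), Rfc2 (15.1%), Rfc4 (12.7%), Mcm7 (12.6%), Slbp (7.80%), Orc6 (6.93%) and Cdc45 (5.96%), and their values carry the same uncertainty to that extent.

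Nucleotide supply genes all had log2 fold changes at or above 0, from 0.00027 (Ung) to 0.23 (Tyms). Of the 5, 4 overlapped between genotypes, as did 9648 of 16393 tested genes, and that count says little about nucleotide supply. Rrm1 encodes the large subunit of ribonucleotide reductase, and Rrm2 the small subunit that is made in S phase. Rrm1 stood at 504 and 600 CPM against 572 and 567 CPM. Rrm2 stood at 337 and 444 CPM against 402 and 467 CPM. Per kb of exon the ratio of Rrm2 to Rrm1 was 2.66 and 2.94 in Ppm1bfl/fl and 2.79 and 3.27 in the libraries labelled Ppm1bCKO, with overlap. On principal transcript length the ratio was 1.22 and 1.35 in Ppm1bfl/fl and 1.28 in Ppm1bCKO replicate 1, and highest again in Ppm1bCKO replicate 2; it is lower than per kb of exon because the listed exonic length of Rrm1 (11012 bases) is longer than its principal transcript (3997 bases). Tyms, which makes thymidylate, stood at 83.1 and 92.0 CPM against 93.2 and 112 CPM, without overlap (0.23 ± 0.17, edgeR adjusted p = 0.729). Tk1, which salvages thymidine, ran from 136 to 150 CPM. Ung, which removes uracil from DNA, ran from 30.6 to 37.5 CPM with group means of 34.1 CPM in both genotypes.

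Histone supply and chromatin assembly differed among themselves. Slbp, which binds the stem loop of histone mRNAs, stood at 159 and 209 CPM against 199 and 265 CPM (0.33 ± 0.21, edgeR adjusted p = 0.719). The groups overlapped, with Ppm1bCKO replicate 2 highest and Ppm1bfl/fl replicate 1 lowest. Chaf1b, a subunit of the chaperone that deposits histones behind the fork, ran from 74.9 to 84.9 CPM. Uhrf1, which carries DNA methylation over to new strands, stood at 393 and 465 CPM against 434 and 363 CPM, with Ppm1bCKO replicate 2 lowest (-0.11 ± 0.19).

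Among the genes that control S phase entry, the cyclin E genes were the most variable between controls. Ccne1 stood at 72.6 and 107 CPM in Ppm1bfl/fl, against 88.9 and 114 CPM in those labelled Ppm1bCKO. Ccne2 stood at 42.5 and 56.6 CPM against 51.5 and 64.8 CPM. In both genes each genotype had a lower and a higher library, and the ratio of Ccne2 to Ccne1 per kb of exon stayed between 0.40 and 0.45. E2f1, an activator of the programme, stood at 82.8 and 99.5 CPM against 91.6 and 101 CPM (0.080 ± 0.17). Clspn, the mediator of the replication checkpoint, stood at 128 and 148 CPM against 142 and 104 CPM, lowest in Ppm1bCKO replicate 2 (-0.17 ± 0.20).

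Counted over all roles, both libraries labelled Ppm1bCKO lay above both controls for 6 members (Gins1, Orc6, Prim1, Pcna, Rfc4 and Tyms), or 18.2%, where 20.6% of all tested genes did. Both lay below for 2 members (Mcm10 and Pole), or 6.1%, where 20.6% of all tested genes also did. The share above is close to that of all tested genes, whereas the share below is smaller. That difference was not tested. By role, the median log2 fold change was 0.019 for the helicase, -0.053 for licensing, 0.13 for the polymerases, clamp and loader, 0.045 for nucleotide supply, 0.040 for histone supply and 0.13 for S phase entry. Each role held 0 called genes, where edgeR called 0.372% of all tested genes.

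Per exonic length the members spanned a wide range, led by Pcna with a mean of 250 CPM per kb of exon. Rrm2 followed at 149 CPM per kb, and Mcm5, Mcm7, Mcm3 and Mcm6 lay between 129 and 139 CPM per kb. The ranges of these 4 MCM genes over the libraries overlapped, so their order is not resolved. Within a library the highest of the 6 ring genes exceeded the lowest by 2.13-fold to 2.48-fold, with Mcm2 lowest at 61.4 CPM per kb. On principal transcript length, Mcm4 was lowest instead, and the spread was 2.05-fold to 2.13-fold. The replicative polymerase genes were much lower, with Pola1 at 12.8 and Pole at 10.7 CPM per kb. Dscc1 was lowest of all at 4.78 CPM per kb. This ranking depended on the length used. On principal transcript length Fen1, whose level is uncertain, was lowest at 6.44 CPM per kb. Pcna still led at 395 CPM per kb, followed by Mcm6 (208), Mcm7 (198) and Rrm2 (188).

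**Figure D3:**
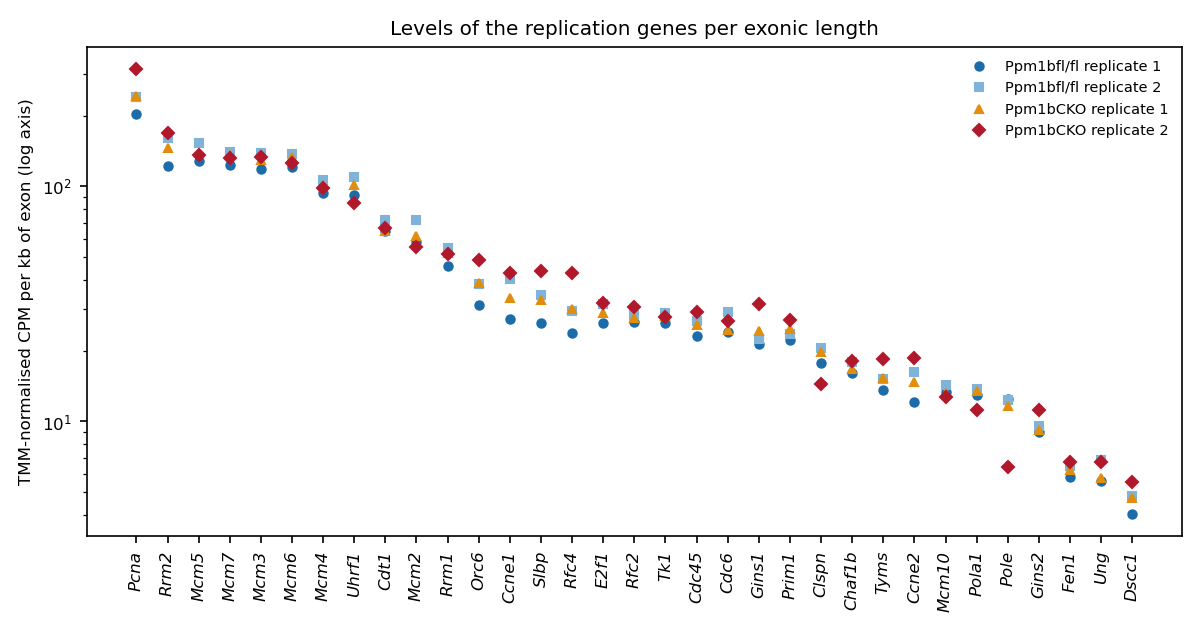
The y axis (log scale) gives the TMM-normalised CPM per kb of exon for each replication gene, ordered by its mean; each marker is 1 of the 4 libraries. On exonic length Pcna leads at a mean of 250 CPM per kb and Dscc1 is lowest at 4.78. On principal transcript length Fen1 is lowest instead. The libraries lie close together for most genes, with Pole and Clspn low and Rfc4, Slbp and Pcna high in Ppm1bCKO replicate 2.

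The spread among the members followed transcript length in Ppm1bCKO replicate 2. In that library the 11 members with the shortest principal transcripts (1087 to 2136 bases, among them Gins1, Rfc4, Orc6, Pcna and Slbp) all lay above the mean of the other 3 libraries, by a median of 0.37 on the log2 scale. The 11 of middle length had a median of 0.13. The 11 longest (3371 to 7163 bases, among them Pole, Pola1, Clspn and Mcm10) had a median of -0.10, and 3 of the 11 lay above. Ppm1bCKO replicate 1 had medians of -0.035, -0.032 and 0.023 in the same order. Spearman's rank correlation between the level in Ppm1bCKO replicate 2 (against the other 3) and principal transcript length was -0.70 over the 33 members, given as a description across genes of 1 library. It was -0.72 over the 58 other replication genes and -0.51 over 13494 tested genes with a principal transcript. Over those genes, split at the same lengths, the medians were 0.30, 0.046 and -0.21. The members also ordered by length in Ppm1bfl/fl replicate 1, with a rank correlation of 0.65. Its medians against the other 3 libraries were -0.30, -0.17 and -0.11 from the shortest to the longest. Over all tested genes with a principal transcript that library had medians of -0.12, -0.026 and 0.10 and a rank correlation of 0.34. Over the members the correlation was also positive in Ppm1bfl/fl replicate 2 (0.53) and Ppm1bCKO replicate 1 (0.40). For each of these libraries the other 3 include Ppm1bCKO replicate 2, so the positive correlations are not independent of its opposite order. Whether members and other genes differ in their relation to length was not tested.

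The log2 fold changes of the members were also ordered by length, with and without Ppm1bCKO replicate 2. Their rank correlation with principal transcript length was -0.67 with all 4 libraries, against -0.39 over all tested genes. Without Ppm1bCKO replicate 2 it was -0.48 over the members, -0.30 over the other replication genes, 0.25 over the G2/M genes and -0.046 over all tested genes. The median log2 fold change by length was 0.21, 0.074 and -0.093 from the shortest to the longest members, and 0.10, 0.041 and 0.0047 without Ppm1bCKO replicate 2. Removing each library's trend with exonic length left 0.17, 0.033 and -0.026, with Pole at -0.32, Pcna at 0.22 and Rfc4 at 0.27, and 0 of 33 members called. Calls appeared in a single alternative, without Ppm1bCKO replicate 1, where replicate 2 alone stands for the genotype and is assumed to vary like the controls. There edgeR called 5 of 33 members, Pole lower (-0.96, adjusted p = 0.00068) and Rfc4, Pcna, Gins1 and Orc6 higher (0.68, 0.51, 0.52 and 0.48; adjusted p from 0.010 to 0.042), while 19.4% of all tested genes were called.

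**Figure D4:**
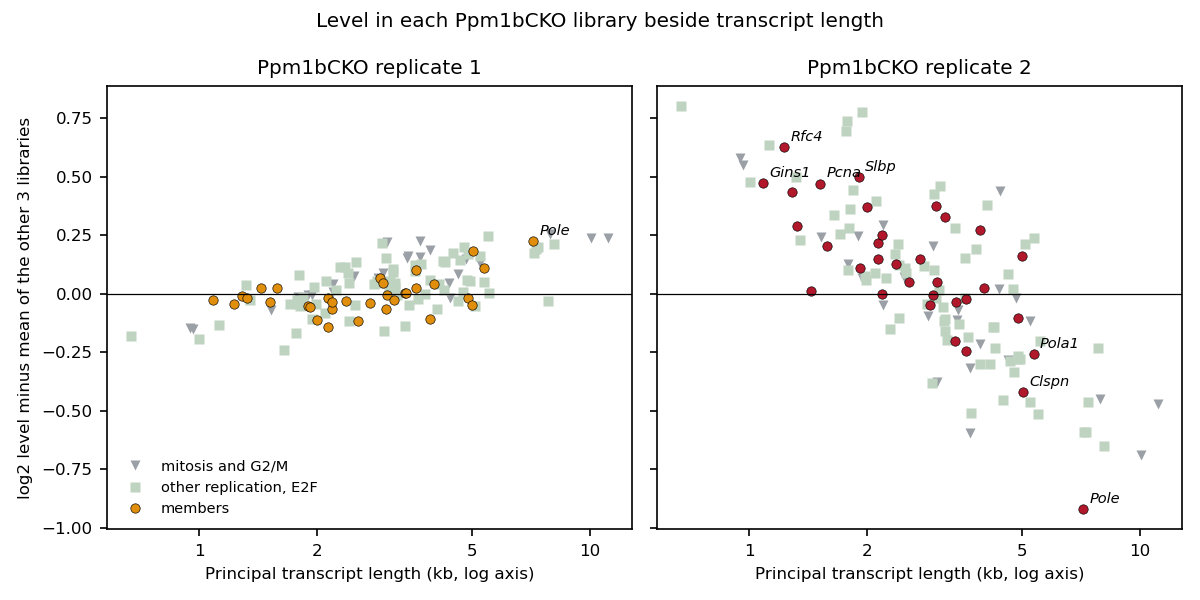
The x axis (log scale) gives the principal transcript length in kb and the y axis the log2 level in a library labelled Ppm1bCKO minus the mean of the other 3 libraries, with replicate 1 on the left and replicate 2 on the right; circles are the 33 replication genes, squares other replication and E2F genes, triangles G2/M genes. In replicate 2 the short members Rfc4, Slbp, Pcna and Gins1 lie above 0 and the long members Pole, Clspn and Pola1 below. In replicate 1 Pole lies above 0 only because the other 3 libraries include Ppm1bCKO replicate 2 (71.3 CPM). The level of Pole in Ppm1bCKO replicate 1 (130 CPM) was below both Ppm1bfl/fl libraries (139 and 138 CPM).

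The rest of the replication pathway also held no called genes. Of 58 other replication genes (further origin, polymerase, clamp loader, single-strand binding, checkpoint and nucleotide enzymes), 0 were called by edgeR, DESeq2 or limma-voom. Over all genes, edgeR called 0.372% and DESeq2 1.24% of those it could adjust, and limma-voom called 50 of 16393. At such shares 0 calls among 58 genes say little about the pathway. Of the 58 log2 fold changes 36 were positive and 22 negative, with a median of 0.066. Both libraries labelled Ppm1bCKO lay above both controls for 19 of the 58 (32.8%) and below for 3 (5.2%), where 20.6% of all tested genes did so in each direction and the members had 18.2% and 6.1%. At an unadjusted p under 0.05 edgeR had 1, Dut, whose enzyme keeps uracil out of DNA, at 151 and 171 CPM against 181 and 287 CPM (0.54 ± 0.23, edgeR adjusted p = 0.717). The other genes with the smallest p were Rfc3 (0.41), a clamp loader subunit, Dck (0.39), which salvages deoxynucleosides, and Rpa3 (0.51), a subunit of the single-strand binding protein. For all 4 of these genes Ppm1bCKO replicate 2 was highest. Ccna2, the cyclin of S phase and G2, stood at 239 and 302 CPM against 285 and 294 CPM. Of 12 E2F, DP and pocket protein genes 0 were called, and their median was -0.056.

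Genes of mitosis and G2/M, the phase that follows, likewise held 0 called of 25, where edgeR called 0.372% of all tested genes. Their median log2 fold change was 0.044. Mki67, a nuclear protein of cycling cells with a transcript of 10061 bases, stood at 1308 and 1713 CPM against 1506 and 930 CPM, lowest in Ppm1bCKO replicate 2. Cdk1, the mitotic kinase, stood at 130 and 148 CPM against 153 and 195 CPM, highest in that library (0.32 ± 0.18, edgeR adjusted p = 0.717). Top2a, which untangles copied DNA, ran from 706 to 803 CPM. Ppm1bfl/fl replicate 1 was the lowest library for 12 of the 25 and Ppm1bCKO replicate 2 for another 12. Over all tested genes these libraries were lowest for 24.9% and 37.2%.

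Cell type markers differed among the libraries, and not all lists were lowest in Ppm1bfl/fl replicate 1 as the replication genes were. Of 15 erythroid markers, that library was lowest for 11, where it was lowest for 24.9% of all tested genes. The erythroid sum was 10133 and 17069 CPM in Ppm1bfl/fl against 14304 and 19645 CPM in the libraries labelled Ppm1bCKO. Klf1, a transcription factor of the erythroid lineage, stood at 101 and 152 CPM against 115 and 174 CPM. Of 10 stem cell and LSK markers Ppm1bfl/fl replicate 1 was highest for 9 (Kit at 228 CPM), where it was highest for 26.0% of all tested genes. Their sum was 564 and 440 CPM against 462 and 370 CPM. In Ppm1bCKO replicate 2, B-lineage markers were highest for 11 of 12, where 36.7% of all tested genes were. Their sums were 300 and 287 CPM against 405 and 768 CPM. Macrophage markers summed to 903 and 925 CPM against 533 and 661 CPM, and plasma cell markers to 21915 and 13219 CPM against 4193 and 5582 CPM (1 of 10 called, Igha, lower). The other marker lists held 0 genes called by edgeR. At an unadjusted p under 0.05 edgeR had 11 of 12 B-lineage, 7 of 13 macrophage and 7 of 10 plasma cell markers. Myeloid granule and neutrophil markers had 1 each, and stem cell and erythroid markers 0. The share over all tested genes was 6.44%. Summed levels of myeloid granule markers (5900 to 6512 CPM) and neutrophil markers (4482 to 5449 CPM) were closer between libraries. No marker found in the table was at 0 in any library, and Azu1, of the granule list, was not matched. The part of these cells in the replication values was not tested. Leaving erythroid genes out of the fit kept the members' median at 0.045, and leaving immunoglobulin genes out gave 0.040, each with 0 of 33 called. Both fits drop only those genes, and replication transcripts from the same cells stay in the counts. They therefore cannot test the part of these cells.

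**Figure D5:**
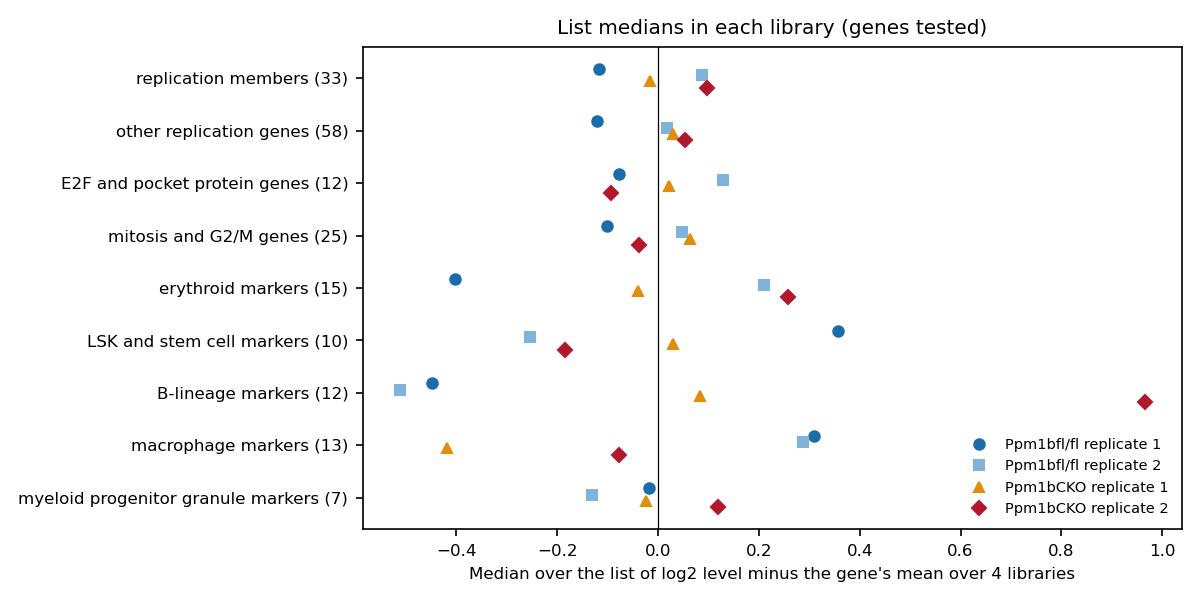
For each list (number of genes tested), the x axis gives the median over genes of the log2 level in a library minus the gene's mean over the 4 libraries; each marker is 1 library. Ppm1bfl/fl replicate 1 is lowest for the replication members and for erythroid markers and highest for stem cell markers, and Ppm1bCKO replicate 2 is highest for B-lineage markers.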

How the data were processed

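Gene-level RNA-seq counts of 4 libraries were read from the deposited table, whose values are raw whole-number counts per gene, not normalised. Per the labels' protocols, RNA was TRIzol-extracted total RNA and libraries were made with a TruSeq kit. Per the submitters' processing notes, the authors used Trim Galore 0.6.7 and HISAT2 2.2.0, with featureCounts 2.0.1 and the build mm10. The strand setting, the annotation release and the handling of reads that map to several places are not given in the sources used here, so overlapping genes are uncertain. The deposited table also gives another value per gene, its exonic length. Identifiers were matched to GENCODE M21 (55139 of 55399), which supplied symbols and principal transcript lengths.

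The test was that of edgeR 4.0.16, run in R 4.3.3 (TMM scaling, filterByExpr with a minimum count of 10 and a total of 15, robust quasi-likelihood test, Benjamini-Hochberg over 16393 genes, threshold 0.05). DESeq2 1.42.0 and limma-voom (limma 3.58.1) were alternatives, with other filters and scalings, a replicate block, libraries left out, a length trend (lowess span 0.3) removed, and immunoglobulin or erythroid genes left out. The fit was also run on simulated counts with 2-fold and 4-fold changes, whose outcome is not given here. Those counts held no trend with length, so they do not test the fit under such a trend. The 33 members and all lists were chosen with earlier results of these data known. All members are described by role. Of other lists, up to 4 genes with the smallest p, and a fixed set that includes Kit, Ly6a, Hbb-bs, Mpo, Klf1, Mki67, Cdk1, Top2a, Ccna2, Igha, Cd79a and Ppm1b, could be named.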

Additional observations from a re-analysis of the deposited data

How the results depend on the processing

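Each member had at least 341 counts in every library, where counting error is 5.42%, and each genotype had 2 libraries. The count of all genes called (61) was 199 by DESeq2, 311 with no low-count filter and 207 with the replicate block. It was 0 without immunoglobulin genes (edgeR, 989 genes at an unadjusted p under 0.05), and 94 to 3336 with a library left out. Members called stayed at 0 under every alternative except without Ppm1bCKO replicate 1, so that they ran from 0 to 5 with a library left out, and other replication genes from 0 to 14. The summed level (0.047) ran from -0.068 to 0.17. The replicate numbers share only a number: the correlation of same-numbered deviations was 0.064, and the replicate block left 0 members called, with 2 at an unadjusted p under 0.05. Of 33 members, 20 changed sign with a library left out. Their ranges were -0.31 to 0.0068 (Mcm2), -0.082 to 0.14 (Mcm3), -0.093 to 0.089 (Mcm4), -0.15 to 0.11 (Mcm5), -0.082 to 0.11 (Mcm6), -0.070 to 0.13 (Mcm7), -0.022 to 0.26 (Gins2), -0.19 to 0.086 (Cdc6), -0.13 to 0.026 (Cdt1), -0.25 to 0.023 (Pola1), -0.0078 to 0.16 (Fen1), -0.079 to 0.18 (Rrm1), -0.035 to 0.36 (Rrm2), -0.046 to 0.097 (Tk1), -0.14 to 0.15 (Ung), -0.039 to 0.12 (Chaf1b), -0.24 to 0.019 (Uhrf1), -0.080 to 0.48 (Ccne1), -0.051 to 0.22 (E2f1) and -0.41 to 0.042 (Clspn). Values near 0 also changed sign with the length trend removed (Mcm10 0.014, Pola1 0.015, Fen1 -0.025), by limma-voom (Mcm4 0.00093), with the replicate block (Mcm4 0.00032), and for Ung with no low-count filter (-0.0083), a CPM minimum of 1 (-0.0053) and immunoglobulin genes left out (-0.0054). The cause was not tested.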
